A study of Mus musculus with 10 samples.

Results

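The genes described here are the metallothioneins Mt1 and Mt2, the zinc-sensing transcription factor Mtf1, and the zinc transporters Slc30a1, Slc39a8 and Slc39a14. They were taken by name, with earlier results of these data known. All 6 were found among the 32903 genes to which the deposited transcripts could be assigned. RNA was sequenced from preadipocytes, the precursors of fat cells, of inguinal subcutaneous fat from male C57 BL6 mice labelled WT. The cells of 5 libraries were given the vehicle DMSO, and the cells of the other 5 were given 2.5 µM BPS dissolved in DMSO. BPS, or bisphenol S, replaces bisphenol A in many plastics and thermal papers. The labels give no age of the mice and no exposure time, and they do not say whether replicates were separate animals or dishes, so p-values measure only the spread between these libraries, which may be technical. The library numbers in the labels run through the 5 DMSO libraries first and then the 5 BPS libraries, so an effect of processing order and the treatment cannot be told apart.

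Metallothioneins are small cysteine-rich proteins that bind zinc, copper and cadmium and buffer the free zinc of the cell. When zinc rises, the factor MTF1 binds short metal response elements near the start of its target genes, among them Mt1, Mt2 and Slc30a1. Transporters of the SLC30 family move zinc out of the cytosol, and those of the SLC39 family move it in. ZIP14, the product of Slc39a14, and ZIP8, the product of Slc39a8, also carry iron and manganese, and ZIP14 is known to be induced early in the differentiation of cultured preadipocytes.

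The windows around the start sites are shown because the metal response element is the feature that Mt1, Mt2 and Slc30a1 are known to share. RefSeq sequences of build GRCm38.p6 covered the genes other than Slc39a14. Each window held 250 bases before and 50 bases after the annotated start taken for it. The element was searched as TGCACNC and TGCGCNC on both strands. Capitals mark the matches. For Mt1 that start is not the first base of the annotated gene, which begins at 94178883, so most bases shown lie inside the gene span. Mt1 and Mt2 lie on the plus strand, and the bases before the starts of their windows read as follows.
Mt1 upstream, chr8:94178839-94179088: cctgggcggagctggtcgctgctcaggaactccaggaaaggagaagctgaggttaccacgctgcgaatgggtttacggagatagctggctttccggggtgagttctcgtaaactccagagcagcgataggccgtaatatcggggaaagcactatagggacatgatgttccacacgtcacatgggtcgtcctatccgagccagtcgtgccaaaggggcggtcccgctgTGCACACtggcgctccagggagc
Mt2 upstream, chr8:94172368-94172617: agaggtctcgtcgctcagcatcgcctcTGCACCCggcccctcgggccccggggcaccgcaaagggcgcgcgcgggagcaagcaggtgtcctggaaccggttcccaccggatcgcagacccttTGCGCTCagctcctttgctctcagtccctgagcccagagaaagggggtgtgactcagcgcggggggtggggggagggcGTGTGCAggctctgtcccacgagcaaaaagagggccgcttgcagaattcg

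Some matches lie past the start taken for the window, so each match of Mt1, Mt2 and Slc30a1 is also given with its flanks. Positions count the base at that start as 1. The annotated genes Mt1 and Slc30a1 begin earlier, at 94178883 and 191906697, so their matches at -23 and -43 also lie inside the gene span. Which start these cells use was not tested, so a position does not show whether a match is transcribed. All lie in plus-strand windows, and matches read as GNGTGCA or GNGCGCA are on the minus strand.
Mt1 at -23, chr8:94179059-94179079: cccgctgTGCACACtggcgct
Mt1 at 3, chr8:94179084-94179104: ggagctcTGCACTCcgcccga
Mt1 at 21, chr8:94179102-94179122: cgaaaagTGCGCTCggctctg
Mt2 at -223, chr8:94172388-94172408: tcgcctcTGCACCCggcccct
Mt2 at -128, chr8:94172483-94172503: gacccttTGCGCTCagctcct
Mt2 at -50, chr8:94172561-94172581: ggagggcGTGTGCAggctctg
Mt2 at 5, chr8:94172615-94172635: tcgggtcGTGCGCAggcccag
Slc30a1 at -43, chr1:191906731-191906751: gggttccGAGTGCAaagcaaa
Slc30a1 at 31, chr1:191906804-191906824: ccgggccGAGCGCAgtcgccg

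The window of Mt1 held 3 matches, that of Mt2 held 4 and that of Slc30a1 held 2. Of 32851 windows of 300 bases in the RefSeq table, 25.7% held at least 1 match, 7.11% at least 2, 1.97% at least 3 and 0.52% at least 4. The window of Mtf1 held 0 matches, and the windows of Slc39a8 held 0 and 1. The antioxidant response element, searched as TGACNNNGC on both strands, had 1 match in the windows of Mt2 and Slc30a1 and in the first window of Slc39a8, against 12.39% of all windows with at least 1. The xenobiotic response element, searched as GCGTG on both strands, had 1 match in Mt1, 2 in Mt2, 1 in Slc30a1 and 1 in the second window of Slc39a8, against 32.39% of all windows with at least 1. A match is a description of the letters only, and these motifs can overlap each other.

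Total estimated counts lay between 38200573 and 42314795 per DMSO library and between 37920689 and 42717227 per BPS library (exact two-sided permutation test, p = 0.452). Values below are in CPM, the usual unit in which a gene's counts are scaled to the same total in every library. The 12 preadipocyte markers were all tested and summed to 27300 to 29200 CPM in DMSO and 26100 to 29600 CPM in BPS, and 1 of them rose (Cd34). The 7 markers of mature fat cells summed to at most 0.355 CPM, with Adipoq, Cidec, Lep, Retn and Cfd at no more than 3 counts in any library. Macrophage markers summed to 10.8 to 17.2 CPM in DMSO and 12.0 to 19.6 CPM in BPS, and Csf1r had no more than 3 counts. The 6 endothelial markers, all tested, summed to 17.3 to 22.8 CPM in DMSO and 16.8 to 22.4 CPM in BPS, and 0 rose and 0 fell. Epithelial markers summed to at most 0.435 CPM, and T and B cell markers to at most 0.282 CPM. Mural markers, those of pericytes and smooth muscle, differed between the groups: the 7 genes summed to 1070 to 1140 CPM in DMSO and 1380 to 1480 CPM in BPS, and 3 of them rose (Acta2, Cspg4 and Des). Most of that sum was Acta2, smooth muscle actin, which went from 1037 ± 29.3 to 1339 ± 41 CPM (SD, n = 5 each). Mesothelial markers, 2 of 5 tested, summed to 9.06 to 11.0 CPM in DMSO and 11.0 to 12.9 CPM in BPS, and 1 of them rose (Krt19), while Msln and Upk3b had no more than 3 counts in any library. The part of the mural and mesothelial markers in the results below was not tested.

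Mt1, Mt2 and Slc39a14 fell under BPS by small amounts, and Mtf1, Slc30a1 and Slc39a8 did not pass the test. Of the 6 genes, 3 fell and 0 rose in the quasi-likelihood test of edgeR, at a threshold of 0.05 on p-values adjusted by Benjamini-Hochberg over 14597 genes. Of all tested genes, 4.88% were called, 1.82% as lower and 3.06% as higher. The unadjusted p was under 0.05 for 18.8% of all genes, and for 4 of the 6, all lower, in edgeR and limma-voom, and for 3, all lower, in DESeq2. The median log2 fold change of the 6 was -0.135, against 0.00039 over all tested genes. Because the 6 were chosen with earlier results known, these counts and medians are a description and no test of the set. In bulk RNA, fewer cells that express a gene and less RNA per cell cannot be told apart.

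Mt1, the main inducible metallothionein together with Mt2, stood at 72.8, 75.8, 75.5, 78.1 and 77.3 CPM in DMSO replicates 1 to 5. In BPS replicates 1 to 5 it stood at 70.4, 73.2, 66.2, 68.3 and 64.5 CPM. All 5 BPS libraries were under the DMSO mean and 4 were under the lowest DMSO library, but BPS replicate 2 lay above DMSO replicate 1, so the groups overlapped. The mean went from 75.9 ± 2.01 to 68.5 ± 3.45 CPM (SD, n = 5 each), a change of -9.69% (95% interval -14.2 to -4.97%, for this gene alone). On the log2 scale it fell by 0.15 with an SE of 0.034, and the edgeR test gave an adjusted p = 0.0291.

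Mt2, which lies next to Mt1 in the genome, stood at 104.9, 110.3, 114.0, 109.7 and 108.9 CPM in DMSO replicates 1 to 5. In BPS replicates 1 to 5 it stood at 89.7, 105.7, 100.6, 97.5 and 98.8 CPM. The highest BPS library, again replicate 2, was just above the lowest DMSO library, again replicate 1, and the other 4 BPS libraries were under all DMSO libraries. The mean went from 109.6 ± 3.25 to 98.4 ± 5.8 CPM (SD, n = 5 each), a change of -10.2% (95% interval -15.2 to -4.92%). This corresponds to -0.16 on the log2 scale, with an SE of 0.038 and an adjusted p = 0.0383 in edgeR.

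Both calls sat near the threshold. Across 21 other gene-level settings, in which Mt1 and Mt2 kept a lower value under BPS, Mt1 was called in 13 (adjusted p 0.00244 to 0.0801) and Mt2 in 12 (0.00432 to 0.0874), by edgeR, DESeq2 or limma-voom. Each lost its call when DMSO replicate 2, 3, 4 or 5 or BPS replicate 3, 4 or 5 was left out. With the replicate number as a block, Mt1 lost its call (adjusted p = 0.0801 by edgeR). The deposited counts of Mt2 were whole numbers on 1 transcript, those of Mt1 lay to 97.6% on 1 of its 2 transcripts, and the transcripts of Mt1 and Mt2 in GENCODE M21 shared no run of 31 bases.

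No difference between the groups was detected in the relation of the metallothioneins to each other. The log2 ratio of Mt1 to Mt2 counts was -0.53 ± 0.042 in DMSO and -0.52 ± 0.107 in BPS (SD, n = 5 each, exact two-sided permutation test, p = 0.921, adjusted p = 0.921 over 6 ratios). Levels of different genes can be compared only roughly, per kilobase of transcript. The full length was used without a correction for fragment size, and Mt2 and Mt1 are short (511 and 549 bases, against 7631 for Mtf1 and 5244 for Slc30a1). On this scale Mt2 stood highest, at 214 ± 6.35 CPM per kb in DMSO and 193 ± 11.4 CPM per kb in BPS. Mt1 followed at 135 ± 3.71 and 122 ± 5.9 CPM per kb, Mtf1 at 3.23 ± 0.142 and 3.12 ± 0.05 CPM per kb, and Slc30a1 at 2.8 ± 0.032 and 2.79 ± 0.087 CPM per kb (SD, n = 5 each). Neighbours in this order did not overlap in any library of the same group. Slc39a8 and Slc39a14 are left out of it because under 80% of their counts lay on transcripts with a known length.

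**Figure D1:**
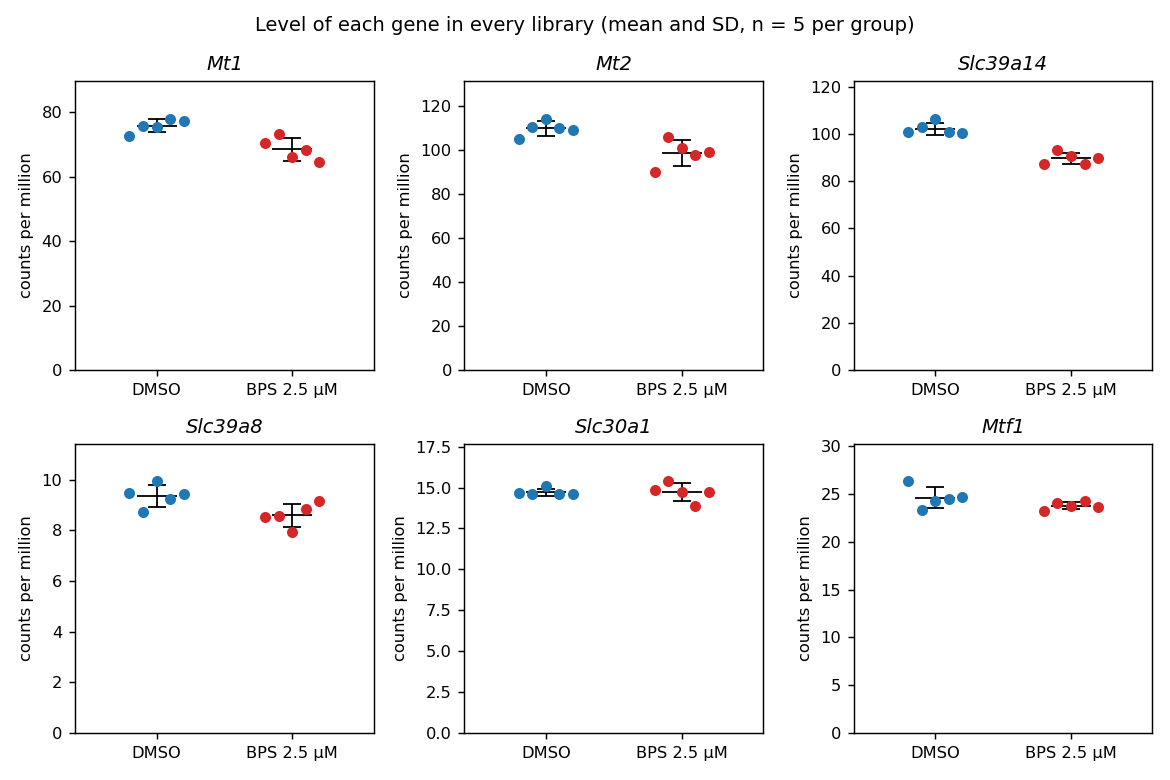
Level in CPM (vertical axis, from 0) in each of the 5 DMSO and 5 BPS libraries for the 6 genes, with the mean and SD as black bars; points run from replicate 1 to 5 within a group. Slc39a14 is the gene whose groups do not overlap (87.4 to 93.3 CPM in BPS, 100.5 to 106.4 CPM in DMSO), and Slc30a1 and Mtf1 overlap.

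Slc39a14, the importer ZIP14, showed the most separated groups. It stood at 100.7, 102.8, 106.4, 100.8 and 100.5 CPM in DMSO replicates 1 to 5 and at 87.4, 93.3, 90.5, 87.4 and 89.8 CPM in BPS replicates 1 to 5. Every BPS library was under every DMSO library, a separation that 6.9% of all tested genes showed, 2.71% as lower. The group means were 102.2 ± 2.49 CPM in DMSO and 89.7 ± 2.45 CPM under BPS (SD, n = 5 each), a change of -12.3% (95% interval -15.4 to -9.12%). On the log2 scale the gene fell by 0.19 with an SE of 0.024, and edgeR gave an adjusted p = 0.00104, with 53 genes at a smaller one. The call held in 20 of 21 other gene-level settings. It was lost with matching by exact accession version, which kept 90.8% of the gene's counts (log2 fold change -0.19, adjusted p = 0.0684 by edgeR).

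Slc39a14 was also the gene whose counts were spread over the most transcripts. The RefSeq transcript NM_144808.4 took 70.2 ± 3.03% of its counts in DMSO and 72.0 ± 6.61% in BPS (SD, n = 5 each). The share of the predicted transcript XM_006518791.1 was 9.66 to 14.8% in DMSO and 1.61 to 6.06% in BPS, with no overlap. Its estimated counts were 357.8, 557.1, 622.6, 507.6 and 485.2 in DMSO replicates 1 to 5 and 175.2, 52.2, 202.5, 132.1 and 170.5 in BPS replicates 1 to 5. The share of XM_006518789.3 was 1.46 to 10.5% in DMSO and 9.33 to 21.7% in BPS. These shares were looked at after their values had been seen. The exact two-sided permutation test gave p = 0.00794 for the first, the smallest that 5 against 5 allows, and p = 0.0159 for the second. Neither passed adjustment over 14 transcripts of Slc39a14, Slc39a8 and Mt1 (both 0.111). A single transcript at the smallest p could not have passed it, so this adjustment cannot decide on the first share. Tested as a transcript, XM_006518791.1 differed by -1.75 on the log2 scale (SE 0.305), which missed the threshold in edgeR (adjusted p = 0.0624), and 0 of 14 transcripts of the 6 genes were called, against 0.335% of all transcripts. At an unadjusted p under 0.05 there were 4 of 14, against 6.83% of all transcripts. The file gives no error of the division of reads among transcripts, so it is not known how far these shares are determined.

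**Figure D2:**
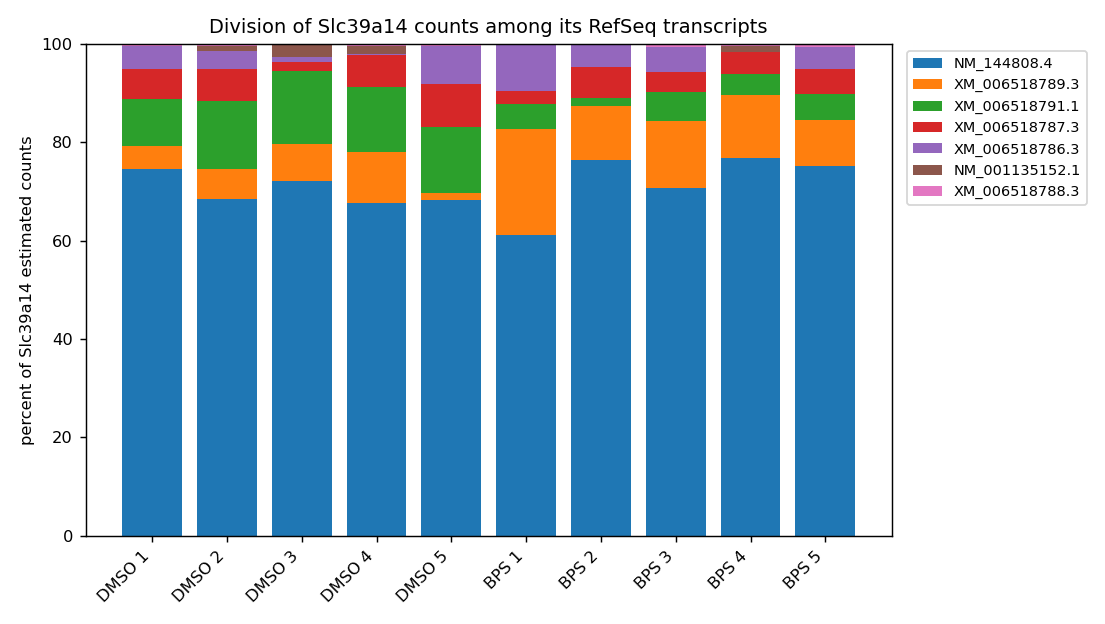
Stacked bars give the percent of Slc39a14 estimated counts (vertical axis) that each RefSeq transcript took in each of the 10 libraries (horizontal axis). The segment of XM_006518791.1 takes 9.66 to 14.8% in the DMSO libraries and 1.61 to 6.06% in the BPS libraries, and the largest segment, NM_144808.4, averages 70.2% and 72.0%.

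Slc39a8, the importer ZIP8, was the least abundant of the 6 in CPM. It stood at 9.49, 8.75, 9.94, 9.24 and 9.44 CPM in DMSO replicates 1 to 5 and at 8.53, 8.56, 7.94, 8.85 and 9.16 CPM in BPS replicates 1 to 5, on 293 to 392 counts per library. The groups overlapped, with 3 BPS libraries under the lowest DMSO library. The log2 fold change was -0.12 (SE 0.053) and did not pass the adjustment (edgeR, unadjusted p = 0.0381, adjusted p = 0.232). The 95% interval of the difference ran from -15.2 to -0.554%. With exact version matching, which kept 16.7% of its counts, the value was -0.99 (adjusted p = 0.0792 by edgeR).

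Slc30a1 encodes ZnT1, the zinc exporter of the cell surface, and is a known MTF1 target like the metallothioneins. It stood at 14.7, 14.6, 15.1, 14.6 and 14.6 CPM in DMSO replicates 1 to 5 and at 14.9, 15.4, 14.7, 13.9 and 14.7 CPM in BPS replicates 1 to 5. The groups overlapped, and the BPS libraries held both the highest and the lowest value. The log2 difference was 0.00045 with an SE of 0.035 (edgeR adjusted p = 0.998), with a sign that turned with the scaling. The 95% interval of the difference, -5.19 to 5.53%, spans no change and differences of up to that size.

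Mtf1, the zinc-sensing factor itself, stood at 26.3, 23.4, 24.2, 24.5 and 24.7 CPM in DMSO replicates 1 to 5 and at 23.3, 24.1, 23.8, 24.2 and 23.7 CPM in BPS replicates 1 to 5. DMSO replicate 1 was the highest library and the others overlapped. The log2 difference was -0.048 with an SE of 0.033 (edgeR adjusted p = 0.489), and the 95% interval of the difference ran from -8.02 to 1.67%.

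A call in one gene and none in another does not show that they differ, so log2 ratios of counts within each library were compared, which do not depend on the scaling of libraries. Slc30a1 was taken as the denominator after its values had been seen. Its own log2 difference was 0.00045, so the ratios largely repeat the changes of the other genes and are no separate support for them. The share of all genes that would separate from Slc30a1 in the same way was not computed. The ratio of Mt1 to Slc30a1 went from 2.37 ± 0.049 in DMSO to 2.22 ± 0.068 in BPS (SD, n = 5 each), and the groups did not overlap (exact two-sided permutation test, p = 0.00794, the smallest possible, adjusted p = 0.0159 over 6 ratios). The ratio of Mt2 to Slc30a1 went from 2.90 ± 0.034 to 2.74 ± 0.086, and that of Slc39a14 to Slc30a1 from 2.80 ± 0.018 to 2.61 ± 0.035, again without overlap and with the same exact permutation p and adjusted p. The ratios of Slc39a8 (difference -0.12, adjusted p = 0.0952) and Mtf1 (difference -0.0478, adjusted p = 0.381) to Slc30a1 overlapped between the groups in the same exact permutation test.

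**Figure D3:**
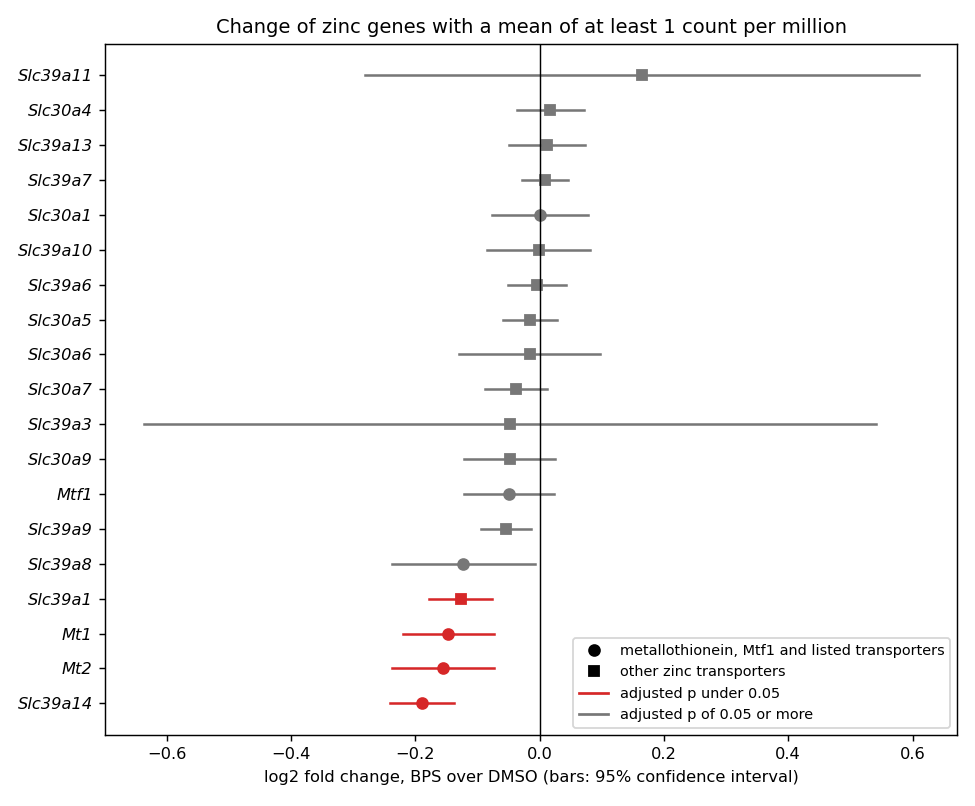
Log2 fold change of BPS over DMSO (horizontal axis) with its 95% confidence interval for each tested metallothionein, Mtf1 and zinc transporter with a mean of at least 1 CPM (rows); circles mark the 6 genes described here, squares the other transporters, and red those with an adjusted p under 0.05. Slc39a14, Mt2, Mt1 and Slc39a1 lie below 0 in red, and the other intervals are grey.

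Few of the remaining zinc transporters were called. Of the other 9 SLC30 genes, 5 were tested, and 0 rose and 0 fell by edgeR, DESeq2 or limma-voom, with 0 at an unadjusted p under 0.05 in each. Their median log2 fold change was -0.0158. Slc30a4, a zinc transporter of vesicles, was the most abundant of the family in CPM with 106.4 ± 3.82 CPM under DMSO against 107.7 ± 1.67 CPM under BPS (SD, n = 5 each, edgeR adjusted p = 0.774). Slc30a8, the transporter of insulin granules, had 0 counts in all libraries, and Slc30a2, Slc30a3 and Slc30a10 had no more than 3 counts in any.

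Of the other 12 SLC39 genes, 9 were tested, 0 rose and 1 fell, with a median of -0.00125. The 1 that fell was Slc39a1, the widely expressed importer ZIP1 and the most abundant of the family in CPM. It stood at 342.2, 336.2, 342.6, 327.0 and 326.0 CPM in DMSO replicates 1 to 5 and at 320.5, 302.3, 302.7, 297.5 and 309.6 CPM in BPS replicates 1 to 5. The groups did not overlap, and on the log2 scale it fell by 0.13 with an SE of 0.023 (edgeR adjusted p = 0.00952). Its value is uncertain: 27.69% of its runs of 31 bases in GENCODE M21 were shared with other genes, most of them with the pseudogene Slc39a1-ps. With exact version matching, which kept 10.8% of its counts, its log2 fold change was 0.57 (adjusted p = 0.615 by edgeR). In each of the other 20 gene-level settings it was called. The groups of Slc39a9, another importer, did not overlap either, which 2.71% of all tested genes showed as lower. Slc39a9 missed the threshold (edgeR adjusted p = 0.126).

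The other metallothioneins, Mt3 of the brain and Mt4 of stratified epithelia, had no more than 3 counts in any library and were not tested. Of 14 genes of copper handling, all tested, 0 rose and 0 fell by edgeR and limma-voom, 1 was lower at an unadjusted p under 0.05 in both, and 1 fell in DESeq2. That gene was Steap2, a metalloreductase and the most abundant of the list in CPM (log2 difference -0.0762, edgeR adjusted p = 0.0682). Of 12 genes of iron handling, 11 were tested, and by edgeR and limma-voom 0 rose and 1 fell, Fth1, the ferritin heavy chain. In DESeq2 2 fell. An unadjusted p under 0.05 held in edgeR for 18.8% of all tested genes, in either direction. With each tool it held for 3 of the 11 iron genes, all lower. In edgeR these were Fth1, Slc40a1, the iron exporter ferroportin (log2 difference -0.17, adjusted p = 0.105), and Pcbp2, an RNA-binding protein that also delivers iron (log2 difference -0.0563, adjusted p = 0.0522), whose groups did not overlap. Fth1 went from 1008 ± 25.3 to 923.6 ± 28.5 CPM (SD, n = 5 each), or -0.13 on the log2 scale with an SE of 0.023 (edgeR adjusted p = 0.0112), and lost its call with the replicate block (adjusted p = 0.0556 by edgeR). Ftl1, the ferritin light chain, stood at 1424 ± 42 and 1438 ± 40.5 CPM (SD, n = 5 each, adjusted p = 0.817 by edgeR). Of 8 genes listed as responsive to MTF1 or zinc, of which Slc39a10 is also counted among the SLC39 genes, 6 were tested, and 0 rose and 0 fell by edgeR and limma-voom. Gclc, a subunit of the enzyme that starts glutathione synthesis, was lower at an unadjusted p under 0.05 in edgeR and limma-voom and was the 1 gene that fell in DESeq2. Its mean was 44.1 ± 0.548 CPM under DMSO against 39.9 ± 2.68 CPM under BPS (SD, n = 5 each), without overlap of the groups, a log2 difference of -0.14 (SE 0.041, edgeR adjusted p = 0.0717). The most abundant of them in CPM was Txnrd1, a thioredoxin reductase, at 257.2 ± 10.4 and 250.5 ± 6.39 CPM (SD, n = 5 each, adjusted p = 0.525 by edgeR).

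Beside the 6 genes, 44 genes of the metal lists were tested in all, Slc39a10 counted once, and 0 rose and 2 fell by edgeR. Irrespective of the test 28 had a lower and 16 a higher value under BPS, with a median log2 difference of -0.0155, against 7268 lower and 7329 higher over all tested genes. At an unadjusted p under 0.05 7 of the 44 were lower and 0 higher, where 18.8% of all tested genes passed that threshold in either direction. DESeq2 called 5, all lower. In CPM, the groups of 5 of the 44 genes did not overlap, against 6.9% of all tested genes in either direction.

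Mt1 and Mt2 were not the nearest neighbours of each other over the libraries. Of 12456 genes with a mean of at least 1 CPM, the pattern most like Mt1 over the 10 libraries was that of Snai1, an epithelial to mesenchymal transition factor (Pearson r of log2 CPM 0.935), followed by Pxylp1 (0.926) and Lmnb2, a B-type lamin (0.924). The pattern most like Mt2 was that of Prg4, the lubricin gene (0.973), followed by Bmp6, a bone morphogenetic protein (0.963), and Ddit4, an inhibitor of mTORC1 signalling (0.96). Between Mt1 and Mt2 r was 0.709. These values are taken over both groups, so a difference between the groups enters them. Of these 6 genes, Pxylp1, Lmnb2, Prg4 and Ddit4 fell under BPS, and Snai1 (edgeR adjusted p = 0.0779) and Bmp6 (0.0907) did not pass the test. With each group's mean subtracted, r between Mt1 and Mt2 was 0.179. Then Dhodh (0.923), Tnfrsf12a (0.92) and Eef1aknmt (0.919) were most like Mt1, and Tgm2 (0.983), Arsi (0.961) and Serpina3n (0.96) most like Mt2. With 10 libraries and this many genes, such values are a description and no test.

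**Figure D4:**
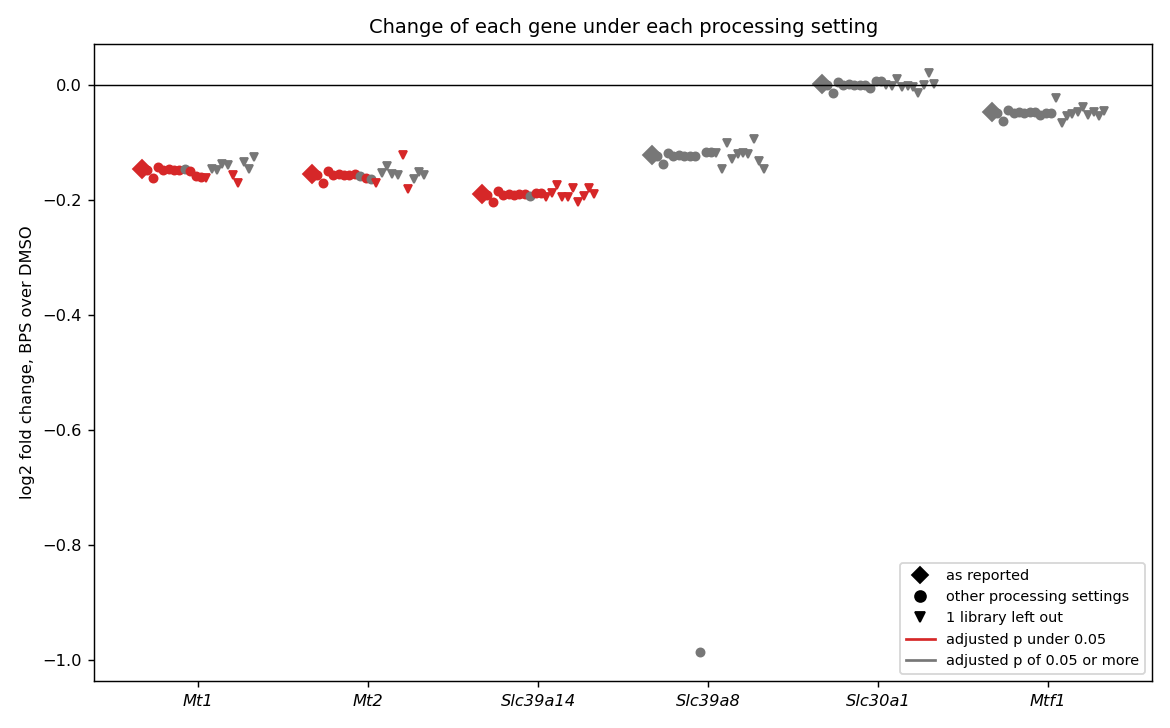
Log2 fold change of BPS over DMSO (vertical axis) of the 6 genes under each gene-level processing setting: diamonds are the values reported here, circles the other settings and triangles the fits without 1 library, in red where the adjusted p is under 0.05. Slc39a14 stays between -0.205 and -0.175 and is red in all but 1 setting, and Mt1 and Mt2 stay below 0 and turn grey in several; the lone point near -0.99 is Slc39a8 with exact version matching.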

How the data were processed

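RNA of 10 libraries of mouse preadipocytes, 5 DMSO and 5 BPS, was sequenced from directional libraries, per the labels' protocols. The deposited values are estimated counts for 107384 RefSeq transcripts. They were made with kallisto 0.42.4, per the submitters' processing notes and the file headers. Its index, genome build and strand setting are not given in the sources used here.

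Accessions were matched without version to the RefSeq table of GRCm38.p6, which placed 86722 transcripts, with 93.1% of counts, in 32903 genes. Gene totals were formed from these and then rounded. The 20662 unmatched transcripts, with 6.9% of counts, were left out. Genes were filtered with filterByExpr and scaled with TMM factors (0.9854 to 1.008), and the groups were compared in edgeR (quasi-likelihood test, no covariate). P-values of 14597 genes were adjusted by Benjamini-Hochberg, with a threshold of 0.05. The standard error is the log2 fold change over the square root of F. Replicates of a group differed beyond sampling noise, with a chi-square per degree of freedom of 4.13 to 8.77. Lengths and shared runs of bases came from GENCODE M21 transcripts.

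The 6 genes, the lists and the tests were chosen with earlier results of these data known. Named genes were the 6, called genes of the metal lists, the most abundant gene of each list, and the 3 genes most like Mt1 and Mt2; genes named outside this rule (Slc39a9, Gclc, Slc40a1, Pcbp2, markers and genes at or near 0 counts) were chosen after their values were seen. On simulated counts for 14597 genes, of which 14453 were tested, the code recovered 94% of seeded log2 changes of 1, 90% of 0.6, 60% of 0.3 and 44% of 0.2, and 5.26% of its calls were not seeded.

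Alternatives were DESeq2 size factors, library size alone, upper-quartile scaling, no filter, a filter of 1 CPM in 5 libraries, limma-voom, the Wald test of DESeq2, the replicate number as a block, exact version matching, transcripts without summing, and leaving out each library. Removal of each library's trend over GC content and length, alone and with the block, was added after the data had been seen. The software was edgeR 4.0.16, DESeq2 1.42.0, limma 3.58.1 and mgcv 1.9.3 in R 4.3.3, and Python 3.11.15 with pandas 2.3.3, numpy 2.4.6 and scipy 1.17.1.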

Additional observations from a re-analysis of the deposited data

Results flagged for a closer look

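DMSO replicate 3 had 15.08 CPM of Slc30a1, and the remaining 4 DMSO libraries had 14.58 to 14.69 CPM. By Dixon's test this library lay far from the others, with a gap of 0.776 of the group's range against a critical value of 0.71. Of 16 groups of 5 values checked, 1 stood apart, and chance gives about 0.8. Without DMSO replicate 3 Slc30a1 was still not called.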

How the results depend on the processing

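The count of all changed genes, 712, was 374 with the replicate block, 328 with exact version matching, 473 when the block was joined to removal of the trend over GC content and length, 126 for transcripts without summing, and 449 to 774 when 1 library was left out. Of the 6 genes, 3 were called; the number was 1 with exact version matching, 0 for transcripts without summing, and 1 to 3 when 1 library was left out. Of the other metal genes, 2 were called; the number was 4 with library size alone, 5 with the DESeq2 Wald test, 1 with the replicate block, 1 with exact version matching, 0 for transcripts without summing, and 2 to 4 when 1 library was left out. In the transcript test, 4 of 14 transcripts of the 6 genes and 9 of 103 of the others had an unadjusted p under 0.05, against 6.83% of all transcripts.

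Mt1, Mt2 and Slc39a14 kept their direction in all 21 gene-level settings. Calls were lost for Mt1 with the block (-0.15, adjusted p = 0.0801 by edgeR), for Mt2 with exact version matching (-0.16, 0.0657) and with the block and trend removal (-0.16, 0.0541), and for Slc39a14 with exact version matching (-0.19, 0.0684). Without summing, the most abundant transcript of each gene gave -0.1454 for Mt1, -0.1537 for Mt2, -0.1511 for Slc39a14 and 0.029 for Slc39a8, whose gene total was lower, none called. The other tested transcripts went both ways for Slc39a14 (-1.75 to 0.982) and were lower for Slc39a8 (-0.589 and -0.289). Without 1 library Mt1 ran from -0.172 to -0.126, Mt2 from -0.182 to -0.123 and Slc30a1 from -0.0154 to 0.0203. Slc30a1, at 0.00045, was below 0 with DESeq2 size factors (-0.0012), library size alone (-0.014), no filter (-0.0013), the DESeq2 Wald test (-0.0013), limma-voom (-0.00029), the block (-9.172e-06), exact version matching (-0.0057) and its most abundant transcript without summing (-0.00065), never called. Higher genes made up 62.8% of calls, and 45.9% with library size alone. Fewer genes and fewer libraries enter some of these fits; otherwise the cause was not tested. No pairing of the libraries by replicate number was seen, though these values cannot exclude it. Deviations of same-numbered libraries correlated at 0.10, 0.0038, -0.067, 0.072 and -0.078. Of the 5 DMSO libraries, 2 correlated best with the BPS library of their own number.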
